A study of Homo sapiens with 12 samples.

Results

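The 10 genes described here encode the factors that transcribe the mitochondrial genome and the translation factors that serve the mitochondrial ribosome. They were taken by name, as 5 transcription genes (TFAM, TFB1M, TFB2M, POLRMT and TEFM) and 5 translation genes (TUFM, TSFM, GFM1, GFM2 and MTIF2). They are 10 of the 58735 genes in the count table. All 10 were among the 20552 genes tested in RNA-seq, and only MTIF2 had enough reads to be tested in ribosome footprinting (Ribo-seq).

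Mitochondria keep a small circular genome that encodes subunits of the respiratory chain and the RNAs of their own ribosome, and every protein that copies, transcribes and translates it is made from nuclear genes in the cytosol and imported. POLRMT is the mitochondrial RNA polymerase. It starts at the promoters with TFAM, which also packages the mitochondrial DNA, and with TFB2M, which opens the promoter, while TEFM keeps the polymerase moving and TFB1M methylates the RNA of the small mitochondrial ribosomal subunit. On the mitochondrial ribosome MTIF2 places the initiator tRNA, TUFM delivers each aminoacylated tRNA, TSFM recharges TUFM with GTP, GFM1 moves the ribosome along the mRNA and GFM2 takes it apart at the end.

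The cells were 293T 4A cells, a human embryonic kidney line carrying SV40 large T antigen that was transduced with a doxycycline-inducible 4EBP1-4A. 4EBP1 is the repressor that binds the cap-binding protein eIF4E, and the 4A form has its phosphorylation sites changed to alanine so that kinases cannot release it. DMSO was given to 3 samples and doxycycline at 2 mg/mL to 3 samples, and both RNA-seq and Ribo-seq were made from each, which gave 12 libraries. The DMSO samples carried the same construct, and all samples received cycloheximide before lysis. The sources differ on the length of treatment: the protocols give 12 h, the series text gives 2 h for the doxycycline samples, and the account of the study also names a longer time. The cells are a sorted transduced population, the endogenous gene remains, and no sample without the construct was compared, so effects of doxycycline itself and of the induced protein cannot be told apart. The question for these genes was whether their mRNA level or its ribosome occupancy differed once 4EBP1-4A had been induced. The study calls the replicates biological, but the labels do not say that they were separate cultures, and the p-values below measure the spread between these samples, part of which may be technical.

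The RNA-seq libraries held between 21687906 and 57824136 reads on genes, and the Ribo-seq libraries between 210186 and 1002424. Doxycycline replicate 3 stood apart in RNA-seq. It had the fewest reads on genes, which were 5.94% of its reads. This share was 22.9% and 19.7% in doxycycline replicates 1 and 2. It was 30.8%, 25.2% and 28.3% in DMSO replicates 1 to 3. The share of reads whose alignment was not unique was 54.9%, 62.3% and 58.6% in DMSO and 65.4%, 69.9% and 88.4% in doxycycline. In both shares the conditions did not overlap, also without doxycycline replicate 3. What part this had in the differences below was not tested. EIF4EBP1, the gene of 4EBP1, was at 161 ± 7.60 CPM in DMSO and 269.5 ± 10.8 in doxycycline (SD, n = 3 each), and all 3 doxycycline libraries lay above all DMSO libraries (adjusted p 0.326, and 1.19e-05 without doxycycline replicate 3). Among markers of the line, 9 of 9 were at 1 CPM or more in all 6 RNA-seq libraries, with a summed level of 1159 to 1425 CPM. Among 7 markers of other cells, 6 were under 1 CPM throughout, UMOD, AQP2, KRT5 and KRT14 were at 0, and the summed level was 2.46 to 3.67 CPM. The exception was COL3A1, at 2.33 to 3.59 CPM, while PAX2, the lowest marker of the line, was at 1.28 to 4.18 CPM.

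The stretches around the start sites are shown because the promoters of this group are known for a pair of nuclear factors, NRF1 and the ETS-family factor GABP. Windows of the RefSeq start sites (GRCh38.p14) were searched on both strands for an NRF1 core, CGCANGCG, and an ETS core, CCGGAA, and all 10 genes had a window. The NRF1 core was present in 5 of 10 windows, against 10.0% of all 35116 windows. In the sequences, given 5′ to 3′ on the strand of the gene, capitals mark the core.
POLRMT, chr19:633542-633571, - strand: ggcggcgcgggCGCATGCGcaggcgcgggc
POLRMT, chr19:633536-633565, - strand: gcgggcgcatgCGCAGGCGcgggccggtgg
TFB2M, chr1:246566259-246566288, - strand: gctccgctgttCGCATGCGcaggctctagt
TFB1M, chr6:155314597-155314626, - strand: gcaggacttagCGCATGCGctctcagcacg
TFAM, chr10:58385337-58385366, + strand: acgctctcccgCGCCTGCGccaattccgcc
TUFM, chr16:28846329-28846349, - strand: tgccttccagcCGCAGGCGcc
Both POLRMT matches overlap each other and begin 23 and 17 bases before its start site. The TFAM match lies on the other strand, which is why its capitals read as the reverse complement. Of the genes with this core, 4 are transcription genes and TUFM is the translation gene.

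The ETS core was found in 7 of 10 windows, against 17.2% of all windows. It occurred in TFB1M, POLRMT, TEFM, TUFM, GFM1, GFM2 and MTIF2, and MTIF2 held 4 matches, of which a pair overlapped. The GFM1, GFM2, TUFM and TEFM matches that begin within 13 bases of the start site are shown, and 1 of the MTIF2 matches is shown beside them.
GFM1, chr3:158644507-158644536, + strand: gcgtcctttgccCCGGAAgtgctcttacaa
GFM2, chr5:74767113-74767142, - strand: gccggtacaccgCCGGAAgtgtggaggtgt
TUFM, chr16:28846339-28846368, - strand: ctctaacttccgCCGGAAgtgccttccagc
TEFM, chr17:30906227-30906256, - strand: agcacgcaggaaCCGGAAgtcaatggagga
MTIF2, chr2:55269262-55269291, - strand: tttccagcgggaCCGGAAgcccggcgggga
No window of the 10 genes held the YY1 motif AANATGGCG, which 3.19% of all windows held. None of the 10 began with a C followed by 4 pyrimidines, the terminal oligopyrimidine start of many mRNAs whose translation depends on mTOR and 4EBP1, and 4.07% of all windows did. These matches describe the letters in the windows only.

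In DMSO the levels of the 10 mRNAs differed by more than 10-fold. Levels between genes were compared as CPM per kilobase of exon (the merged exons of a gene). TUFM was highest at 109 ± 2.12 (SD, n = 3). TFAM at 27.0 ± 1.96, MTIF2 at 25.8 ± 0.797 and GFM2 at 25.1 ± 1.47 followed, and their ranges overlapped. POLRMT at 13.5 ± 1.24 and TSFM at 11.6 ± 0.362 came next without overlap. The lowest were GFM1 at 9.46 ± 0.606, TFB2M at 8.71 ± 0.349, TFB1M at 7.75 ± 0.376 and TEFM at 6.68 ± 0.665, and within this order GFM1 overlapped TFB2M and TFB1M overlapped TEFM. By these counts TUFM, which delivers tRNA, stood far above TSFM, its exchange factor. The count of TSFM is uncertain, since a readthrough gene on the same strand shares 67.3% of its exon bases. In doxycycline TUFM stayed first at 115 ± 7.31 and POLRMT came second at 22.8 ± 7.17, though it overlapped MTIF2, the next in order. Without doxycycline replicate 3, POLRMT was at 18.7 ± 1.09 (SD, n = 2), below MTIF2 at 24.1, TFAM at 23.3 and GFM2 at 20.6. The order depends on the length used. Per kilobase of the canonical transcript, TUFM was again first at 120 ± 2.33, but TFB2M was last at 8.71 and TEFM was at 13.5.

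No member passed the test between doxycycline and DMSO over all 6 RNA-seq libraries (edgeR's quasi-likelihood test, adjusted p under 0.05). The background was the same, with 0% of 20552 genes called higher and 0% called lower. POLRMT was the only member at an unadjusted p under 0.05, on the higher side, where 9.58% of all genes were, and 0 members were on the lower side, where 4.13% were. DESeq2's Wald test also called 0 members. The log2 fold change was below 0 for 8 of 10 members, beside 11035 of the 20552 genes tested. The members' median was -0.23, against -0.035 over all genes tested. The 3 doxycycline libraries all lay above the DMSO libraries in POLRMT, a pattern found in 17.7% of all genes, and all below them in TFAM, TSFM and GFM2, a pattern found in 20.8%. With library totals in place of the TMM factors of edgeR, the median of all genes moved from -0.035 to 0.097, only GFM2 lay wholly below DMSO, as did 13% of all genes, and POLRMT and TUFM lay wholly above it, as did 25.4%. Without doxycycline replicate 3, POLRMT was called higher, where the background was 3.4%, and GFM2 was called lower, where it was 4.03%. The median over the 10 members was then -0.04. In bulk samples, fewer cells with an mRNA and less of it per cell cannot be told apart.

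**Figure D1:**
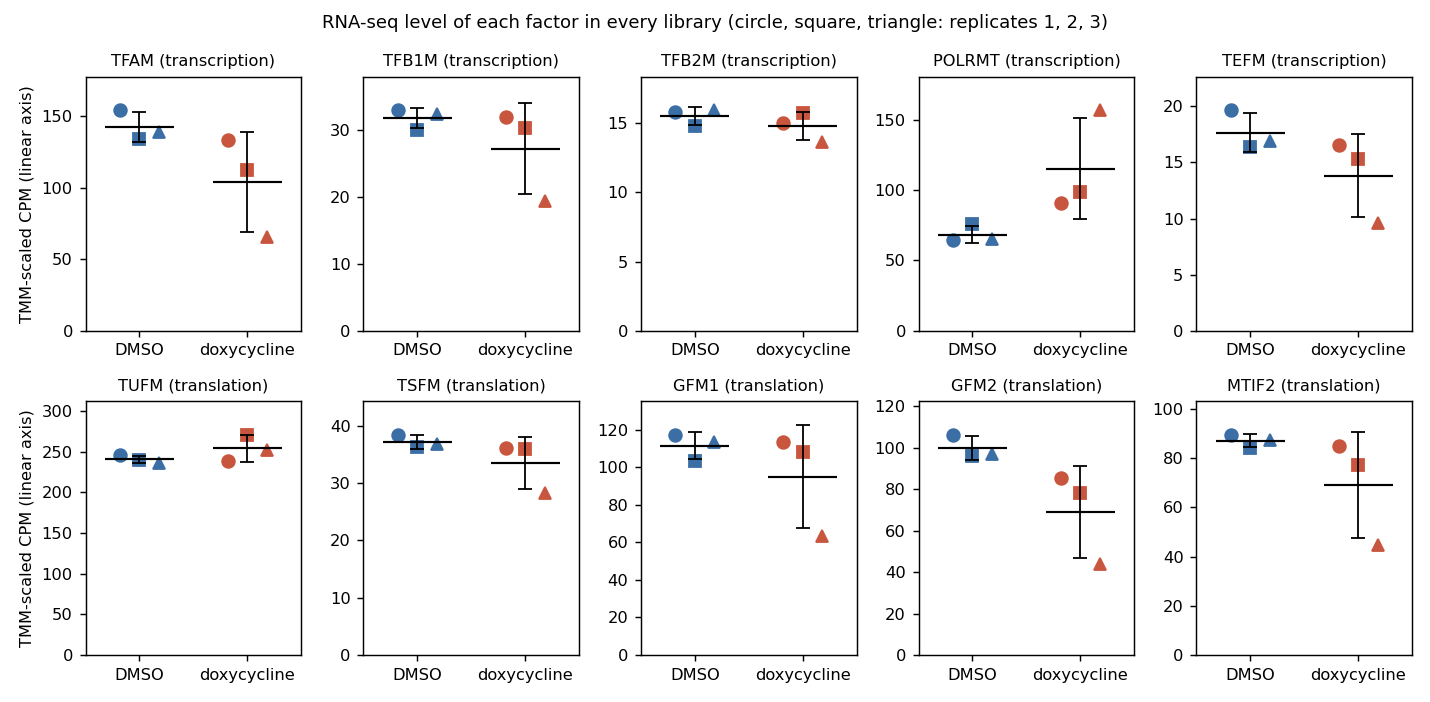
RNA-seq level of each of the 10 factors in every library, as TMM-scaled CPM on a linear axis from 0, for DMSO (blue) and doxycycline (red); circles, squares and triangles are replicates 1, 2 and 3, lines are means and bars are SD (n = 3). In 8 of the 10 panels the triangle of doxycycline is the lowest point, in POLRMT it is the highest at 157 CPM, and in TUFM it lies inside the doxycycline range.

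POLRMT (ENSG00000099821) lies on the - strand of chromosome 19 of GRCh38, from 617221 to 633537, and its canonical transcript has 21 exons. Its level, as TMM-scaled CPM, was 64.4, 75.7 and 65.3 in DMSO replicates 1 to 3 and 90.8, 98.6 and 157 in doxycycline replicates 1 to 3. The doxycycline libraries all lay above the DMSO ones, and replicate 3 was far above the other two. The means were 68.5 ± 6.27 and 115.5 ± 36.3 (SD, n = 3), a ratio of 1.69. This gave a log2 fold change of 0.75 (standard error 0.21, adjusted p 0.326). Without doxycycline replicate 3 it was 0.47 with an adjusted p of 0.0050, so POLRMT was called higher in that fit. It was the only transcription gene of the 5 called there. With the GC offset described below added to that fit, the value was 0.24 (adjusted p 0.0174).

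TFAM (ENSG00000108064) lies on the + strand of chromosome 10, from 58385345 to 58399220, with 7 exons. It was at 154, 134 and 139 CPM in DMSO and at 134, 112 and 65.5 CPM in doxycycline. The groups did not overlap, although doxycycline replicate 1 was below DMSO replicate 2 by less than 1 CPM, and with library totals they overlapped. Its log2 fold change of -0.46 (standard error 0.24, adjusted p 0.326) became -0.22 without doxycycline replicate 3, with an adjusted p of 0.090.

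TFB2M (ENSG00000162851) lies on the - strand of chromosome 1, from 246540561 to 246566261, with 8 exons. Its level was 15.8, 14.8 and 16.0 CPM in DMSO and 15.0, 15.7 and 13.7 CPM in doxycycline. The groups overlapped, and this was the member with the smallest log2 fold change, at -0.07 with an adjusted p of 0.712 and a sign that turned to 0.07 with library totals.
TFB1M (ENSG00000029639) lies on the - strand of chromosome 6, from 155256134 to 155314493, with 7 exons. It was at 33.0, 30.1 and 32.4 CPM in DMSO and at 31.9, 30.3 and 19.4 CPM in doxycycline. Doxycycline replicates 1 and 2 lay inside the DMSO range and replicate 3 below it. TFB1M had a log2 fold change of -0.22 (standard error 0.19, adjusted p 0.457) and -0.03 without that replicate. TIAM2 on the opposite strand shares 30.7% of the exon bases of TFB1M, and since the sources used here do not say whether the counting used the strand, the reads of the pair may not be fully separated.

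TEFM (ENSG00000172171) lies on the - strand of chromosome 17, from 30897336 to 30906238, with 4 exons. Its level was 19.7, 16.4 and 16.9 CPM in DMSO and 16.6, 15.3 and 9.58 CPM in doxycycline. The groups overlapped through doxycycline replicate 1. TEFM had a log2 fold change of -0.35 (standard error 0.21, adjusted p 0.342), and -0.15 without doxycycline replicate 3. A lncRNA gene on the opposite strand shares 20.5% of its exon bases.

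Summed over the 5 transcription genes, the level was 287, 271 and 270 CPM in DMSO and 288, 272 and 265 CPM in doxycycline. These TMM-scaled sums overlapped. With library totals they were 271, 262 and 255 CPM in DMSO and 283, 275 and 310.3 CPM in doxycycline, and did not overlap.

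Among the translation genes, TUFM (ENSG00000178952) lies on the - strand of chromosome 16, from 28842411 to 28846348, with 10 exons. It was at 245, 239.9 and 236 CPM in DMSO and at 239, 271 and 252 CPM in doxycycline. The groups overlapped, and TUFM was the member that doxycycline replicate 3 moved least, lying 0.02 below the mean of the other doxycycline libraries on the log2 scale. Its log2 fold change was 0.08 (standard error 0.096, adjusted p 0.599).

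TSFM (ENSG00000123297) lies on the + strand of chromosome 12, from 57782761 to 57808071, with 6 exons. It was at 38.5, 36.3 and 36.8 CPM in DMSO and at 36.2, 35.95 and 28.2 CPM in doxycycline. All doxycycline libraries were below all DMSO libraries by TMM, the nearest pair by less than 0.1 CPM, and they overlapped with library totals. For TSFM the log2 fold change was -0.15 (standard error 0.13, adjusted p 0.458), and -0.05 without doxycycline replicate 3. A readthrough gene on the same strand shares 67.3% of its exon bases, so the count of TSFM alone is uncertain.

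MTIF2 (ENSG00000085760) lies on the - strand of chromosome 2, from 55236595 to 55269347, with 16 exons. Its RNA-seq level was 89.6, 84.3 and 87.6 CPM in DMSO and 85.1, 77.3 and 44.6 CPM in doxycycline. The groups overlapped through doxycycline replicate 1, and the log2 fold change was -0.34 (standard error 0.22, adjusted p 0.371), or -0.10 without doxycycline replicate 3.
GFM1 (ENSG00000168827) lies on the + strand of chromosome 3, from 158644527 to 158695581, with 18 exons. It was at 117.5, 104 and 113 CPM in DMSO and at 114, 108 and 63.4 CPM in doxycycline. Doxycycline replicates 1 and 2 lay inside the DMSO range. For GFM1 the log2 fold change was -0.23 (standard error 0.21, adjusted p 0.493) over all libraries and -0.01 without doxycycline replicate 3.

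GFM2 (ENSG00000164347), the recycling factor, lies on the - strand of chromosome 5, from 74721206 to 74767147, with 21 exons. It was at 106, 95.8 and 97.0 CPM in DMSO and at 85.4, 78.4 and 43.9 CPM in doxycycline. The doxycycline libraries all lay below the DMSO ones, under both scalings. The means were 99.8 ± 5.82 and 69.2 ± 22.2 (SD, n = 3), and the level in DMSO was 1.44 times that in doxycycline. Over all libraries the log2 fold change was -0.53 (standard error 0.23, adjusted p 0.326). Leaving out doxycycline replicate 3 gave -0.29 with an adjusted p of 0.0244, so GFM2 was called lower in that fit, as the only translation gene of the 5. With the GC offset described below added to that fit, GFM2 was at -0.16 (adjusted p 0.0545) and was not called. NSA2 on the opposite strand shares 3.95% of its exon bases. Summed over the 5 translation genes, the TMM-scaled level was 597.5, 559.9 and 571 CPM in DMSO and 559, 571 and 432 CPM in doxycycline, and only replicate 3 of doxycycline was outside the DMSO range by more than 1 CPM.

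Most of these differences were smaller without doxycycline replicate 3. Against the mean of doxycycline replicates 1 and 2, it was lower by TMM in 9 of 10 members, from -0.91 in TFAM, -0.90 in GFM2, -0.86 in MTIF2 and -0.81 in GFM1 to -0.02 in TUFM on the log2 scale, and higher by 0.73 in POLRMT. The members at both ends of this order also had the lowest and the highest GC content of exons, although those between did not follow it throughout, with TFB2M at -0.17 and 41.2% GC and MTIF2 at -0.86 and 43.8% GC. TFAM had 36.4% GC, which was at percentile 3.56 of the tested genes. POLRMT had 66.4%, at percentile 98.3. Over 20396 tested genes with a value, split into 5 equal groups by GC content, the median log2 fold change of doxycycline over DMSO was -0.36, -0.20, -0.03, 0.13 and 0.34 from the lowest to the highest group. The medians without doxycycline replicate 3 were -0.17, -0.087, 0.00076, 0.075 and 0.17, so the gradient was smaller and had the same direction. TFAM, TEFM, GFM1 and GFM2 were in the lowest GC group, TFB1M, TFB2M and MTIF2 in the next, TSFM in the middle, and TUFM and POLRMT in the highest.

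**Figure D2:**
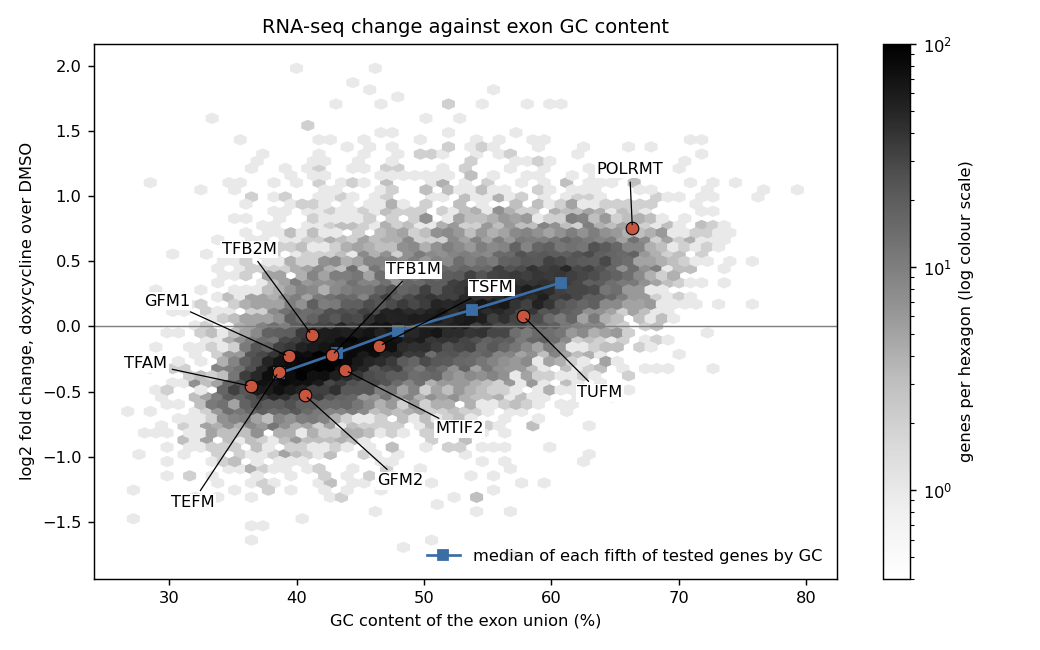
RNA-seq log2 fold change of doxycycline over DMSO in all 6 libraries against the GC content of the merged exons (%), with hexagons shaded by the number of genes on a log colour scale, red points for the 10 factors and blue squares for the median of each of the 5 GC groups; genes outside the axes are not drawn. The blue line climbs from -0.36 to 0.34, POLRMT lies above it at 66.4% GC, and GFM2, MTIF2 and TUFM are among the factors below it.

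A fit with a GC offset for each library, which was chosen after seeing the data, gave values relative to genes of like GC content. The members' median was then -0.01. POLRMT was at 0.27 and GFM2 at -0.25 on the log2 scale, and both kept the direction they had without the offset. TFAM was at -0.02, TFB1M at -0.005, TEFM at 0.01, TSFM at -0.06, GFM1 at 0.10, TUFM at -0.15, MTIF2 at -0.16 and TFB2M at 0.23. No member was called in this fit of 6 libraries. With the offset and without doxycycline replicate 3, POLRMT was at 0.24 with an adjusted p of 0.0174 and was called higher, beside 2.02% of all genes. GFM2 was at -0.16 with an adjusted p of 0.0545 and was not called, beside 2.03% of all genes called lower. What part GC content or replicate 3 had in the values of the 10 genes was not tested.

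**Figure D3:**
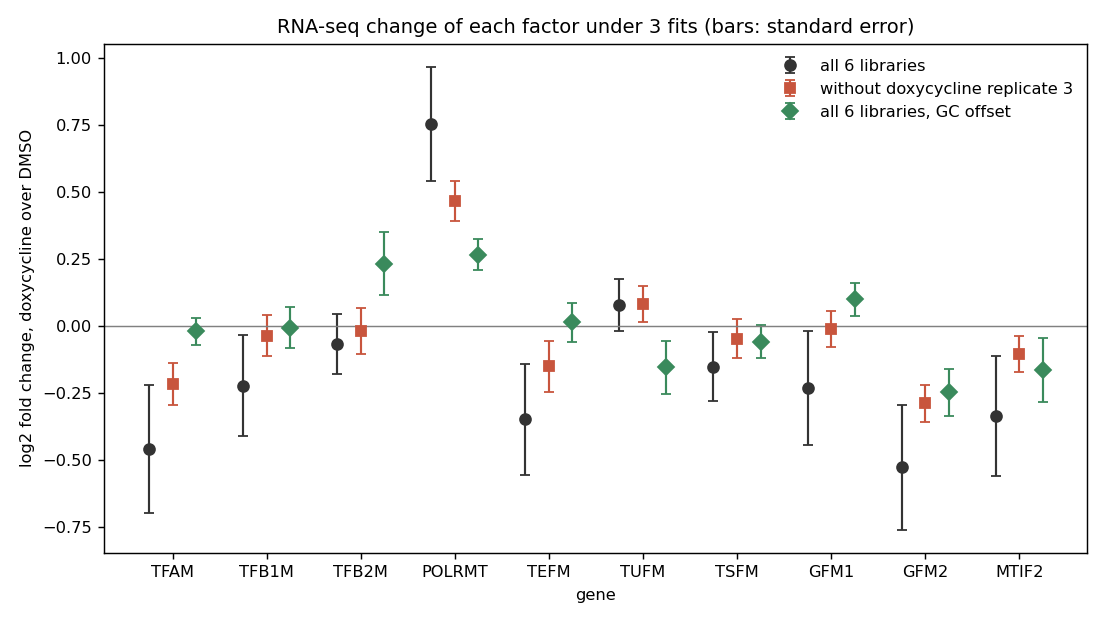
RNA-seq log2 fold change of doxycycline over DMSO for each factor in 3 fits (black, all 6 libraries; red, without doxycycline replicate 3; green, all 6 libraries with a GC offset), with bars for the standard error. POLRMT stays above 0 at 0.75, 0.47 and 0.27, GFM2 stays below 0 at -0.53, -0.29 and -0.25, and TFAM goes from -0.46 to -0.02.

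Ribo-seq could be read for MTIF2 alone. It had 1, 20 and 20 Ribo-seq reads in DMSO and 47, 28 and 30 in doxycycline, 146 in all. The other 9 members together had 6 reads over the 6 Ribo-seq libraries, beside 207139 reads in RNA-seq. TSFM had 2 of these, TFAM, TFB1M, TEFM and TUFM had 1 each, and TFB2M, POLRMT, GFM1 and GFM2 had 0. TUFM, the most abundant mRNA of the group, thus had 1 Ribo-seq read. Such counts were common here, since 74.4% of the genes tested in RNA-seq had 0 or 1 Ribo-seq reads and 5.74% had 10 or more. A count of 0 in 1 library allows up to 3 reads, which is 4.15 to 7.10 TMM-scaled CPM in these libraries (counting error only). With so few reads, ribosome occupancy of the 9 genes could not be compared between the conditions. MTIF2 stood at 6.55 Ribo-seq reads per 1000 RNA-seq reads and the 9 others at 0.0290. Only totals per gene were available, and where the MTIF2 reads lie along the mRNA was not examined. Footprints of ribosomes and other fragments at this gene therefore cannot be told apart. Among the 1607 genes tested in Ribo-seq, 16.1% had at least as many reads as MTIF2.

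**Figure D4:**
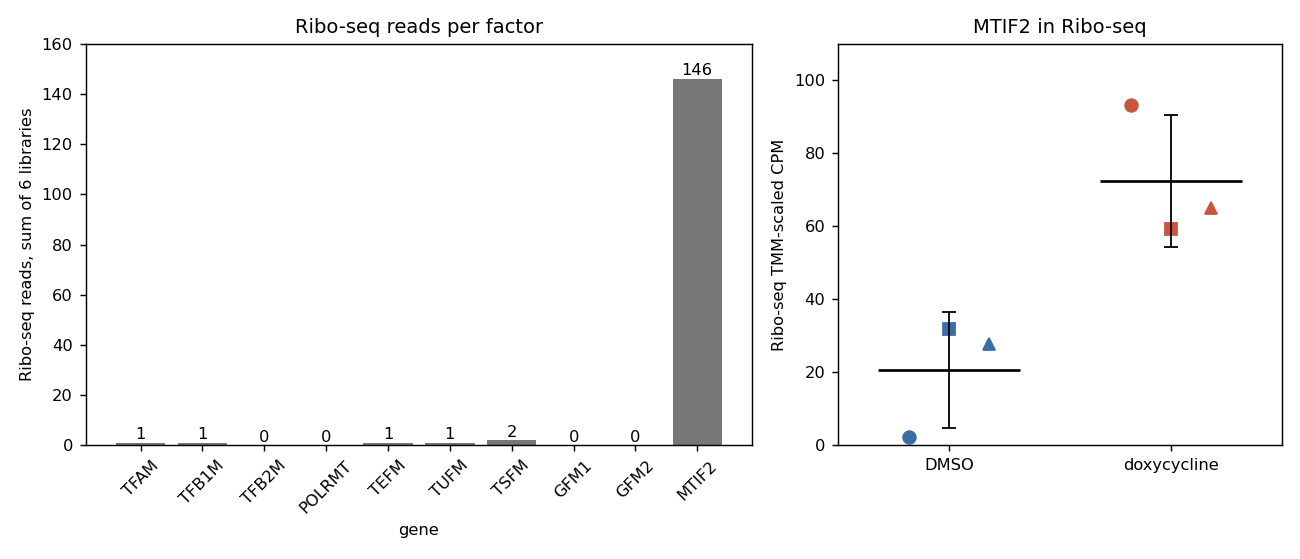
Left, Ribo-seq reads of each factor summed over 6 libraries, where MTIF2 has 146 and the others have 0 to 2. Right, TMM-scaled Ribo-seq CPM of MTIF2 in each library (circles, squares and triangles are replicates 1, 2 and 3), with the mean and SD (n = 3); the 3 doxycycline libraries lie above the 3 DMSO libraries.

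For MTIF2, the TMM-scaled Ribo-seq level was 2.37, 31.9 and 27.7 CPM in DMSO and 93.2, 59.4 and 65.02 CPM in doxycycline. The groups did not overlap, as in 3.42% of the genes tested, and DMSO replicate 1, the shallowest library, had the single read. The means were 20.7 ± 16.0 and 72.5 ± 18.1 (SD, n = 3). In Ribo-seq the log2 fold change came to 1.79 (standard error 1.44, adjusted p 0.680), and 0% of the genes tested were called higher. Translation efficiency (TE), the Ribo-seq change over the RNA-seq change in 1 model of the 12 libraries, changed by 2.13 on the log2 scale (standard error 1.08, adjusted p 0.275) and was not called. The median TE change of the 1334 genes tested was -0.36, 12.9% of them had a higher log2 value than MTIF2, and 0% were called higher. DESeq2's Wald test gave 2.07 with an adjusted p of 0.0261 and called 2.32% of the genes higher, while the other 18 alternatives gave adjusted p from 0.121 to 0.997. Without DMSO replicate 1 of Ribo-seq the TE change was 1.52 with an adjusted p of 0.193. On simulated counts with 200 genes changed 8-fold, edgeR's Ribo-seq test recovered 0 and its TE test 1. The missing calls therefore do not decide whether MTIF2 changed.

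The other nuclear genes of mitochondrial DNA expression give the setting of these 10. Over 12 replication genes, 24 RNA processing genes and 16 further translation genes, 0 of 52 passed the test over all 6 libraries, and 7 were higher and 0 lower at an unadjusted p under 0.05, beside 9.58% and 4.13% of all genes. With doxycycline replicate 3 left out, 4 of the 52 were called higher and 0 lower, beside 3.4% and 4.03% of all genes. Of these, 3 were replication genes and 1 was an RNA processing gene. The median log2 fold change was 0.21 for replication, -0.19 for RNA processing and -0.11 for translation, beside -0.035 for all genes. Without doxycycline replicate 3 these medians were 0.12, -0.06 and -0.004, beside -0.01 for all genes.

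Among the replication genes, ATAD3A and ATAD3B, which encode membrane proteins that associate with mitochondrial nucleoids, had the largest log2 fold changes. ATAD3A was at 75.9, 81.1 and 78.7 CPM in DMSO and at 101, 109.7 and 154 CPM in doxycycline. It rose by 0.42 without doxycycline replicate 3 (adjusted p 0.0044), and ATAD3B rose by 0.43 in the same fit (adjusted p 0.0057). They are close paralogues, so their reads may be shared. TOP1MT, the mitochondrial topoisomerase, named after its values were seen as the other gene called, rose by 0.28 (adjusted p 0.0298). SSBP1, the single-strand binding protein of the replication fork, was at -0.39 over all libraries (adjusted p 0.327), and the nuclease MGME1 was at -0.30 (adjusted p 0.326).

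In the RNA processing list, TBRG4, a FASTK-family regulator of mitochondrial mRNA, rose by 0.24 without doxycycline replicate 3 (adjusted p 0.0397). PTCD1 was at 0.32 over all libraries, the termination factor MTERF1 at -0.51 and the tRNA methyltransferase subunit TRMT10C at -0.50, each not called. In the further translation list the GTPases MTG1 and MTG2, which act in ribosome assembly, were at 0.51 and 0.35. The elongation factor GUF1 was at -0.43 and the release factor homologue MTRF1 at -0.41, and no gene of that list was called with or without doxycycline replicate 3. With the GC offset and without doxycycline replicate 3, ATAD3A and ATAD3B were again called higher, and LRPPRC at 0.24 and RMND1 at 0.23, both named after their values were seen, were called in place of TOP1MT and TBRG4. That made 4 of the 52 higher and 0 lower, beside 2.02% and 2.03% of all genes.

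Nuclear regulators of mitochondrial genes were also measured, including the subunits of GABP, which binds the ETS core shown above. Of 11 regulators, 0 were called over all 6 libraries. With doxycycline replicate 3 left out, 2 were called higher and 1 lower, beside 3.4% and 4.03% of all genes. In that fit the coactivator PPRC1 rose by 0.33 (adjusted p 0.0180). Its relative PPARGC1B, named after its values were seen, rose by 0.25 (adjusted p 0.0355). GABPA, the DNA-binding subunit of GABP, was at 45.4, 38.6 and 37.8 CPM in DMSO and at 35.3, 30.8 and 15.2 CPM in doxycycline. It fell by 0.30 on the log2 scale without doxycycline replicate 3 (adjusted p 0.0464), and with the GC offset added it was at -0.13 (adjusted p 0.236) and was not called. Its partner GABPB1 was at -0.48 and the receptor ESRRA at 0.42 over all libraries, both with an adjusted p of 0.326. A further subunit of GABP, GABPB2, had the opposite sign, at 0.35 over all libraries (adjusted p 0.326). NRF1, whose core is shown above, was at 0.06 (adjusted p 0.714). GABPB2 and NRF1 were named after their values were seen, and neither was called.

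Of the RNAs that POLRMT itself makes, 0 of the 15 mitochondrially encoded genes were called over all 6 libraries. The log2 fold change was below 0 for 14 of 15, with a median of -0.32. Over all genes tested it was below 0 for 11035 of 20552, with a median of -0.035. Without doxycycline replicate 3 it was below 0 for 11 of 15, with a median of -0.08, and the median was 0.02 with the GC offset added to that fit. Over all libraries, 1 gene was higher and 0 were lower at an unadjusted p under 0.05, beside 9.58% and 4.13% of all genes. Only unique alignments were counted, so any reads of these genes that also align elsewhere are missing from their levels. The share of reads without a unique alignment was higher in doxycycline, as given above. MT-CO3, a subunit of cytochrome c oxidase, was at 1117, 839 and 992 CPM in DMSO and at 719, 561 and 163 CPM in doxycycline. The groups did not overlap, and its log2 fold change was -1.03 over all libraries (adjusted p 0.326). Without doxycycline replicate 3 it fell by 0.62 (adjusted p 0.0056), MT-RNR2, the large ribosomal RNA, fell by 0.39 (adjusted p 0.0097), and MT-CO1, named after its values were seen, fell by 0.24 (adjusted p 0.0334). These 3 were the genes of the 15 called lower, and 0 were called higher, beside 4.03% and 3.4% of all genes. The same 3 were also called lower with the GC offset added, at -0.60, -0.30 and -0.21. MT-ND4L, likewise named afterwards, was then called higher at 0.31. In that fit 2.03% of all genes were called lower and 2.02% higher. MT-ND6, the only mRNA encoded on the light strand, was at 7.31, 10.2 and 9.04 CPM in DMSO and at 10.4, 11.1 and 13.9 CPM in doxycycline, and its log2 fold change of 0.41 was the only one above 0 (adjusted p 0.326). In bulk samples less RNA per mitochondrion and fewer mitochondria per cell cannot be told apart.

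Cytosolic counterparts of the translation factors served as a comparison, and 6 of 7 had enough reads to be tested. None was called over all 6 libraries. At an unadjusted p under 0.05, 1 was higher and 0 lower, beside 9.58% and 4.13% of all genes. Without doxycycline replicate 3, 0 were called higher and 1 lower, beside 3.4% and 4.03% of all genes. Here too the levels hold unique alignments only. EEF1A1, the cytosolic relative of TUFM whose mRNA has a terminal oligopyrimidine start, was at 385, 333 and 364 CPM in DMSO and at 311, 305.5 and 188 CPM in doxycycline. It fell by 0.23 without doxycycline replicate 3 (adjusted p 0.0464), and was at -0.18 (adjusted p 0.0619) with the GC offset added. Its paralogue EEF1A2 was at 0.39, and the exchange factor subunits EEF1B2 and EEF1D were at -0.43 and 0.33 over all libraries, each with an adjusted p of 0.326. EIF5B, the cytosolic relative of MTIF2 and named after its values were seen, was at 0.06 over all libraries and was called higher only with the GC offset and without doxycycline replicate 3, at 0.28 (adjusted p 0.0286).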

How the data were processed

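RNA-seq and Ribo-seq libraries of 293T 4A cells were used, 3 with DMSO and 3 with doxycycline in each assay, grouped by their labels. For the footprints the authors clipped linkers and discarded ribosomal RNA reads and both assays were mapped with STAR and unique alignments on exons were counted. The deposited counts are raw. The methods and labels name both GRCh37 and GRCh38, so coordinates come from GENCODE release 44 on GRCh38. The authors' p-values, q-values, TE ratios, log2 values and dispersion scores in the second deposited table were not used.

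The table has 58735 genes, plus 92 ERCC rows, 5 counters of reads without a gene and 89 other rows, which were left out. Of all RNA-seq reads 69.2% to 94.1% had no gene, and of Ribo-seq reads 97.1% to 99.1%. No 2 libraries held identical counts.

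Counts were scaled by TMM and tested across all genes with edgeR 4.0.16 (limma 3.58.1, R 4.3.3) by quasi-likelihood, with Benjamini-Hochberg adjustment at 0.05. Standard errors are of the log2 fold change. RNA-seq genes needed 10 reads in 3 libraries, and Ribo-seq and TE genes 10 reads summed over each assay used. Alternatives were library totals, the size factors of DESeq2, no filter, a minimum of 60 reads, the Wald test of DESeq2 1.42.0, blocks and each replicate left out. The GC offset (lowess of log2 CPM on exon GC, span 0.3, 99.2% of genes), the canonical length and the mean without doxycycline replicate 3 were chosen after seeing the data. GC medians of replicate 3 used a pseudocount of 0.1 CPM.

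Counts were simulated with 200 changed genes, each gene drawn independently. They held no shift shared by many genes, such as the one along GC content in doxycycline replicate 3. Recovery in RNA-seq is therefore not the power of that test on the real libraries. On these counts the RNA-seq test (20552 genes) recovered 97 at 2-fold and 197 at 8-fold, with 5 and 23 other genes called. The Ribo-seq test (1607 genes) recovered 0 at both, and the TE test (1334 genes) recovered 0 at 2-fold and 1 at 8-fold. The members and lists were chosen with earlier results of these data known. Besides the members and EIF4EBP1, the text names from each list at most 2 rising and 2 falling genes of greatest log2 fold change whose groups do not overlap. Further list genes were named after their values were seen, because they were called in a fit without doxycycline replicate 3, and the text says so at each. GABPB2 and NRF1 were also named afterwards, for their link to the promoter cores. RiboDiff, which the authors used for TE, was not run. Python 3.11.15, numpy 2.4.6, pandas 2.3.3, scipy 1.17.1 and matplotlib 3.10.9 were also used.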

Additional observations from a re-analysis of the deposited data

How the results depend on the processing

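The RNA-seq calls changed most without doxycycline replicate 3. With each replicate left out in turn, between 0 and 696 genes were called higher and 0 and 825 lower, and 0 to 1 members each way, with calls only when that replicate was left out. EIF4EBP1 was at 0.71 to 0.80 in those fits, at 0.75 with an adjusted p of 1.19e-05 without that replicate, and at 0.75 with an adjusted p of 6.4e-09 by the Wald test. The Wald test called 1 gene higher and 2 lower in RNA-seq, 2 and 4 in Ribo-seq, and 31 and 42 in TE. With the GC offset and without doxycycline replicate 3, 410 genes were called higher and 413 lower, 1 member was called higher, and EIF4EBP1 was at 0.57. In TE, 2 genes were called lower over all libraries, against 1 with library totals and 0 with a replicate block or a culture block. With no filter 11 were higher and 13 lower, and with each library left out 0 to 2 were higher and 0 to 15 lower, the 15 without DMSO replicate 1 of Ribo-seq. The summed CPM of the members had a log2 ratio of -0.10, which became 0.037 with library totals and -0.012 without doxycycline replicate 3.

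TFB2M changed sign to 0.071 with library totals. With the GC offset alone, with replicate 3 of doxycycline left out, and with a replicate block, TFB2M was at 0.23, 0.11 and 0.23, TEFM at 0.015, 0.017 and 0.015, TUFM at -0.15, -0.048 and -0.16, and GFM1 at 0.10, 0.14 and 0.10, while TFB1M was at 0.059 in the second of these. The cause was not tested. Of 151 planned settings of single members, 147 kept direction and side of the threshold, 3 passed it and 1 changed sign. Of 30 added settings the numbers were 16, 1 and 13. Same-numbered DMSO and doxycycline samples deviated with correlations of 0.46, -0.44 and 0.027 in RNA-seq, so the numbers were not taken as pairs, and with a replicate block 0 members were called. Only MTIF2 had enough Ribo-seq reads for a TE test.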
